A study of Homo sapiens with 10 samples.

Results

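Complement is a cascade of blood proteins, and the genes described here encode 10 of its parts that macrophages make or carry. They are the 3 chains of C1q (C1QA, C1QB and C1QC), the convertase components C2, C3 and CFB, the stabiliser properdin (CFP), the anaphylatoxin receptors C3AR1 and C5AR1, and the opsonin receptor CR1. A gene was taken as measured if a transcript cluster of the array, that is a group of probes for 1 transcript, carried its symbol. All 10 had such a cluster, and 14 of the 21214 clusters with a gene symbol carried a symbol of this set, since C2 and CFB were read by 3 clusters each. The cluster with the highest mean over the 10 arrays stands for its gene.
The cells were THP-1, a human monocytic leukaemia line that takes on a macrophage form with PMA, a phorbol ester. All groups received PMA for 24 h and then a treatment for 24 h. Punicalagin, an ellagitannin of pomegranate, was given at 10 µM to cells of passages 6, 7 and 8 (n = 3). Myricetin and quercetin were each given to cells of passages 7 and 8 (n = 2), and their doses are not given in the sources used here. The control was DMSO, the solvent, at passages 6, 7 and 8 (n = 3). The 2 flavonols share a skeleton, and myricetin carries an additional hydroxyl group on the B ring. As all arrays come from a single cell line, the spread between arrays is that between passages and not between donors.

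Complement can be started by C1q bound to immune complexes, by lectins on microbial sugars, or by the alternative pathway, which amplifies itself through factor B and properdin. All routes meet at the convertases that cleave C3 and then C5. The small fragments C3a and C5a act on receptors of myeloid cells, C3b marks particles for uptake through CR1, and macrophages are a main source of C1q and a local source of other components outside the liver.

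The deposited values are RMA log2 intensities, so that a difference of 1 is a change of 2-fold, and they carry no detection calls. The array medians lay between 5.14 and 5.25. DMSO replicate 1, the array of passage 6, stood apart with a mean Pearson correlation of 0.969 with the other arrays, against 0.977 to 0.983 for each of the others. It was above both other DMSO arrays in 7 of the 10 complement genes. The punicalagin array of passage 8 was below both other punicalagin arrays in 8 of the 10. Over all 10 genes its median difference from the mean of those arrays was -0.52 on the log2 scale. Of 11 macrophage and monocyte markers 10 were measured, and 6 of them were above the upper quartile on all 10 arrays, whereas the mannose receptor gene MRC1 was below the median on all. Of the markers measured for other cells, 3 of 6 for hepatocytes, 4 of 5 for T lymphocytes, 3 of 4 for B lymphocytes, 2 of 4 for neutrophils, 1 of 5 for dendritic cells, 3 of 4 for endothelium and 3 of 6 for fibroblasts and epithelium were below the median on all 10 arrays. Above the upper quartile on all 10 arrays were ELANE of neutrophils, CD83 of dendritic cells and KRT18 of fibroblasts and epithelium, 1 marker in each of these lists. KRT18 was so in its brightest cluster only, and its other cluster, 7955637, was below the upper quartile on all 10 arrays, at 5.41 to 5.81.

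The receptors for C3a and C5a and the component C2 were the members of the set that rose with punicalagin, and the C5a receptor also rose with quercetin. With punicalagin 3 of the 10 genes passed an adjusted p under 0.05 (limma, adjusted over all 21214 clusters), all 3 higher, where 2.33% of all clusters passed in either direction and 2.13% were higher. With quercetin 1 of the 10 passed, where 3.92% of all clusters did and 2.8% were higher. With myricetin none of the 10 passed, where 0.509% of all clusters did, and 2 of them, CFB and C5AR1, had an unadjusted p under 0.05, where 8.62% of all clusters did. The median log2 change of the 10 genes was 0.34 with punicalagin, 0.21 with myricetin and 0.05 with quercetin, beside -0.05, 0.00 and -0.04 over all clusters. All these comparisons share the DMSO arrays. In cells measured in bulk, a change in the number of cells that carry a transcript and a change in its amount per cell cannot be told apart.

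**Figure D1:**
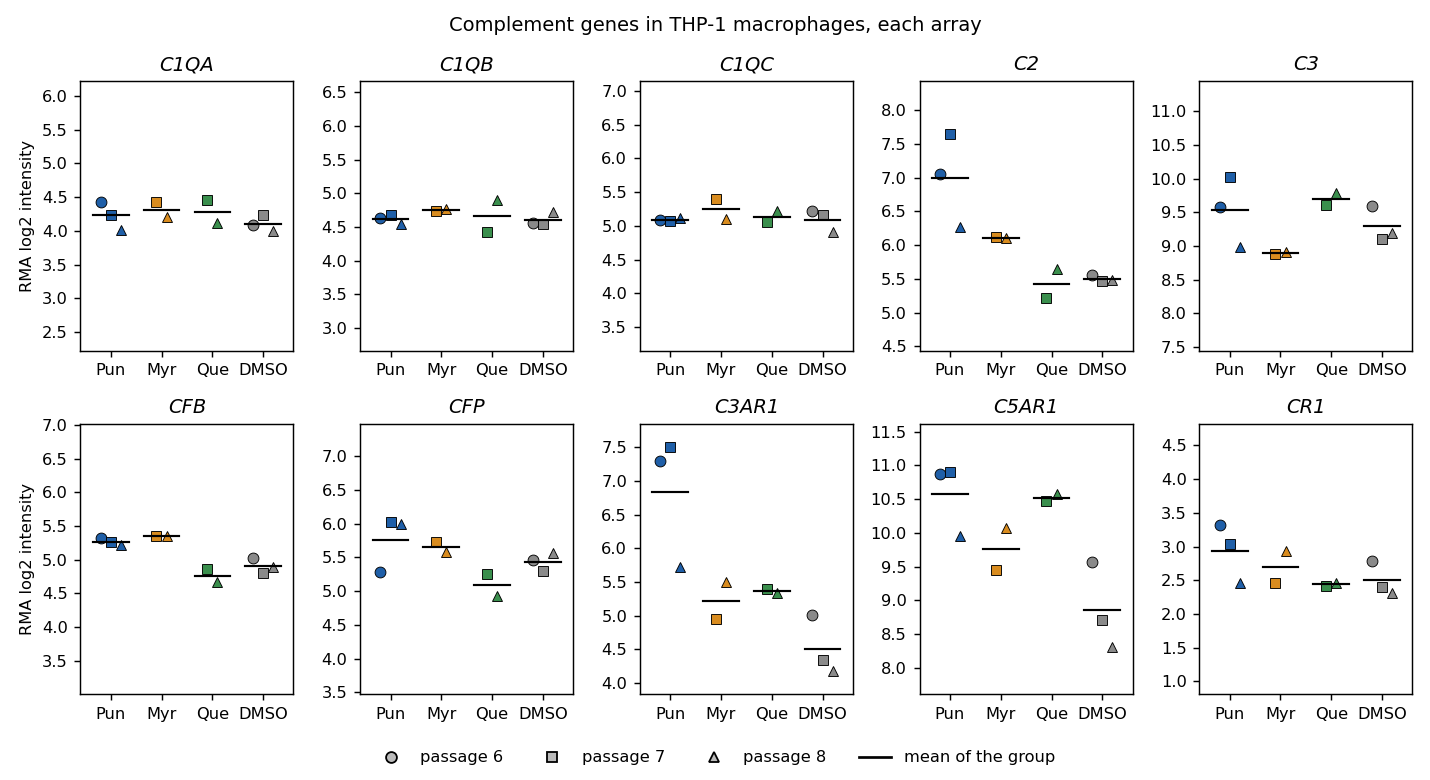
RMA log2 intensity (vertical axis) of the 10 complement genes in each array of cells treated with punicalagin (Pun), myricetin (Myr), quercetin (Que) or DMSO. Each panel spans 4 log2 units, symbols give the passage and bars the mean. The punicalagin arrays lie above the DMSO arrays for C2, CFB, C3AR1 and C5AR1, and C1QA, C1QB and C1QC span 0.46, 0.48 and 0.49 on the log2 scale over all 10 arrays.

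C3AR1 encodes the G protein-coupled receptor for C3a. Its log2 intensity was 7.29, 7.50 and 5.72 in the punicalagin arrays of passages 6, 7 and 8, 4.95 and 5.50 in the myricetin arrays of passages 7 and 8, 5.40 and 5.34 in the quercetin arrays of these passages, and 5.02, 4.34 and 4.18 in the DMSO arrays of passages 6, 7 and 8. Every punicalagin array was above every DMSO array, by at least 0.71, and the passage 8 array was the lowest of the 3. The gene rose 5.03-fold with punicalagin, with a mean of 6.84 ± 0.97, against 4.51 ± 0.45 with DMSO (SD, n = 3 each). With DMSO it was below the array median on all 3 arrays, and no detection call was at hand. The log2 change was 2.33 (standard error 0.43, 95% interval 1.35 to 3.31, adjusted p = 0.0286 from limma). Within passages 6, 7 and 8 the differences were 2.28, 3.17 and 1.55. Myricetin had a log2 change of 0.71 with arrays that overlapped those of DMSO (adjusted p = 0.756), and quercetin one of 0.86 with arrays above all DMSO arrays (adjusted p = 0.415), neither past the threshold.

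C5AR1 encodes the receptor for C5a, which draws and activates neutrophils and macrophages. Its log2 intensity was 10.87, 10.91 and 9.95 in the punicalagin arrays of passages 6, 7 and 8, 9.44 and 10.07 in the myricetin arrays, 10.47 and 10.57 in the quercetin arrays, and 9.56, 8.70 and 8.31 in the DMSO arrays. The punicalagin and the quercetin arrays were all above the DMSO arrays, while the myricetin array of passage 7 was below DMSO replicate 1. With punicalagin the gene rose 3.28-fold, at 10.58 ± 0.54, against 8.86 ± 0.64 with DMSO (SD, n = 3 each; log2 change 1.72, standard error 0.35, 95% interval 0.93 to 2.50, adjusted p = 0.0411 from limma). The differences within passages 6, 7 and 8 were 1.31, 2.20 and 1.64. With quercetin it rose 3.16-fold, at 10.52 ± 0.07 (SD, n = 2), with a log2 change of 1.66 (standard error 0.36, 95% interval 0.86 to 2.45, adjusted p = 0.0265). Its log2 change with myricetin was 0.90, which did not pass (adjusted p = 0.491).
C5AR2, the neighbouring gene on chromosome 19, encodes the second receptor for C5a, which does not signal through G proteins. It was 10.18, 10.26 and 10.26 in the punicalagin arrays, 9.86 and 10.06 in the myricetin arrays, 10.32 and 10.46 in the quercetin arrays, and 8.84, 9.89 and 8.55 in the DMSO arrays. It rose with quercetin (log2 change 1.30, adjusted p = 0.0337, or 0.0537 if passage was fitted as a block) but did not pass with punicalagin (log2 change 1.14, adjusted p = 0.109), where the DMSO arrays varied by an SD of 0.71.

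The promoters of both anaphylatoxin receptor genes and of CFB are shown, since the receptor genes rose and CFB lies close to C2 on chromosome 6. The sequences are the 250 bases before the transcription start in RefSeq (GRCh38.p14), at chr12:8066360-8066609 on the minus strand for C3AR1, at chr19:47309611-47309860 on the plus strand for C5AR1 and at chr6:31945845-31946094 on the plus strand for CFB. Capitals mark matches, on either strand, to the AP-1 element TGANTCA, the STAT element TTCNNNGAA, the interferon response element (GAAA, any 2 bases, GAAA) and the TATA box TATAAA.
C3AR1: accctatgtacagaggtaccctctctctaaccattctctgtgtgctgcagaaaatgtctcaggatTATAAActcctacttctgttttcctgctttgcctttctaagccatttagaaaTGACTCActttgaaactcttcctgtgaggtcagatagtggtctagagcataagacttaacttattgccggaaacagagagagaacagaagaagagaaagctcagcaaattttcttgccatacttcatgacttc
C5AR1: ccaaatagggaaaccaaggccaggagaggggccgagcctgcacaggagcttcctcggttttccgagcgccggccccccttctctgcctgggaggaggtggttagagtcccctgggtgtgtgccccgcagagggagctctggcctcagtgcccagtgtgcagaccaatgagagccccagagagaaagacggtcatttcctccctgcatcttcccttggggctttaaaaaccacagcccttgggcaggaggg
CFB: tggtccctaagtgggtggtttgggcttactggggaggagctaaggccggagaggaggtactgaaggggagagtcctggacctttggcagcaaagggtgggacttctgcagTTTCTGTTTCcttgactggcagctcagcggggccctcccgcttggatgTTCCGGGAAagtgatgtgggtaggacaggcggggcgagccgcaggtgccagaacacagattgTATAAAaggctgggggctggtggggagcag
The C3AR1 window held an AP-1 match at 133 to 127 bases before the start and TATAAA at 185 to 180. The CFB window held an interferon response match at 140 to 131 bases, a STAT match at 92 to 84 bases and TATAAA at 30 to 25 bases before the start. The C5AR1 window held no match, and neither did either of the 2 windows of C2. Windows were at hand for 8 of the 10 genes, and among the others only those of C1QA held a match, to the STAT element. Over all 35116 RefSeq windows of this length, the AP-1 element was found in 6.57%, the STAT element in 6.57%, the interferon response element in 3.02% and TATAAA in 10.7%.

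C2 is the serine protease of the classical and lectin pathway C3 convertase. Its log2 intensity was 7.06, 7.65 and 6.27 in the punicalagin arrays of passages 6, 7 and 8, 6.11 and 6.11 in the myricetin arrays, 5.22 and 5.64 in the quercetin arrays, and 5.56, 5.46 and 5.49 in the DMSO arrays. The punicalagin and myricetin arrays were all above the DMSO arrays, and the quercetin arrays lay on either side of them. C2 rose 2.81-fold with punicalagin, at 6.99 ± 0.69, against 5.50 ± 0.05 with DMSO (SD, n = 3 each; log2 change 1.49, standard error 0.30, 95% interval 0.82 to 2.16, adjusted p = 0.0373 from limma). The differences within passages 6, 7 and 8 were 1.50, 2.19 and 0.78. The 3 clusters of C2 did not give independent readings, since those numbered 8178095 and 8179331 held identical values and cluster 8118324 differed from them by at most 0.12 (log2 change 1.48, adjusted p = 0.0387). The log2 change was 0.61 with myricetin (adjusted p = 0.628) and -0.07 with quercetin (95% interval -0.73 to 0.59, adjusted p = 0.956).

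CFB, the protease of the alternative pathway convertase and the counterpart of C2, differed less. It was 5.32, 5.26 and 5.22 in the punicalagin arrays, 5.35 and 5.35 in the myricetin arrays, 4.86 and 4.67 in the quercetin arrays, and 5.03, 4.81 and 4.89 in the DMSO arrays. In each of its 3 clusters the punicalagin arrays were above all DMSO arrays, and so were the myricetin arrays. These clusters read the same gene and are not independent readings, though they differed by up to 0.32. The log2 change with punicalagin was 0.36 (standard error 0.14, adjusted p = 0.301) in the brightest cluster and 0.52 and 0.57 in the others (adjusted p = 0.110 and 0.0970), and with myricetin it was 0.45 in the brightest cluster (adjusted p = 0.262), so that neither passed. With quercetin it was -0.14 (adjusted p = 0.730).
With CFB, 4 of the 10 genes had all punicalagin arrays above all DMSO arrays and none had them below, where 8.39% of all clusters were above and 9.15% below. For myricetin 4 were above and 1 below, where 13.3% and 10.4% of all clusters were. For quercetin 3 were above and 1 below, where 14.6% and 17.2% of all clusters were.

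C3, the central component that all pathways cleave, was among the brighter clusters, above the upper quartile on all 10 arrays, as was C5AR1. It was 9.58, 10.02 and 8.99 in the punicalagin arrays, 8.88 and 8.92 in the myricetin arrays, 9.61 and 9.79 in the quercetin arrays, and 9.59, 9.10 and 9.20 in the DMSO arrays. The myricetin arrays were all below the DMSO arrays and the quercetin arrays all above, while the punicalagin arrays lay on either side. The log2 changes were 0.23 with punicalagin, -0.40 with myricetin and 0.41 with quercetin, none past the threshold (adjusted p = 0.803, 0.776 and 0.544).
CFP encodes properdin, which stabilises the alternative pathway convertase and which myeloid cells produce. It was 5.28, 6.02 and 5.99 in the punicalagin arrays, 5.72 and 5.58 in the myricetin arrays, 5.25 and 4.93 in the quercetin arrays, and 5.46, 5.30 and 5.56 in the DMSO arrays. The punicalagin array of passage 6 was below all DMSO arrays and those of passages 7 and 8 above, and the quercetin arrays were all below DMSO. The log2 changes were 0.33, 0.22 and -0.35 with punicalagin, myricetin and quercetin (adjusted p = 0.625, 0.895 and 0.540).

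The genes of the 3 C1q chains lie next to each other on chromosome 1 and encode the subunits of 1 hexameric protein. Over the 10 arrays C1QA lay between 3.99 and 4.45, C1QB between 4.42 and 4.91 and C1QC between 4.91 and 5.39 on the log2 scale. C1QA and C1QB were below the array median on all 10 arrays and C1QC on 7. The log2 changes with punicalagin were 0.12, 0.01 and -0.00 for C1QA, C1QB and C1QC (adjusted p = 0.841, 0.988 and 0.995), and the 95% intervals ran at most from -0.33 to 0.48. The largest change of a C1q gene with any of the compounds was 0.21, that of C1QA with myricetin (adjusted p = 0.852).
CR1, the receptor for C3b and C4b on blood cells and phagocytes, was below the lower quartile on all 10 arrays. It was 3.32, 3.04 and 2.45 in the punicalagin arrays, 2.46 and 2.94 in the myricetin arrays, 2.42 and 2.46 in the quercetin arrays, and 2.79, 2.40 and 2.30 in the DMSO arrays. All compounds overlapped DMSO, with log2 changes of 0.44, 0.20 and -0.06 (adjusted p = 0.525, 0.927 and 0.960). No detection call was at hand to tell whether a signal this low stood above background.

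**Figure D2:**
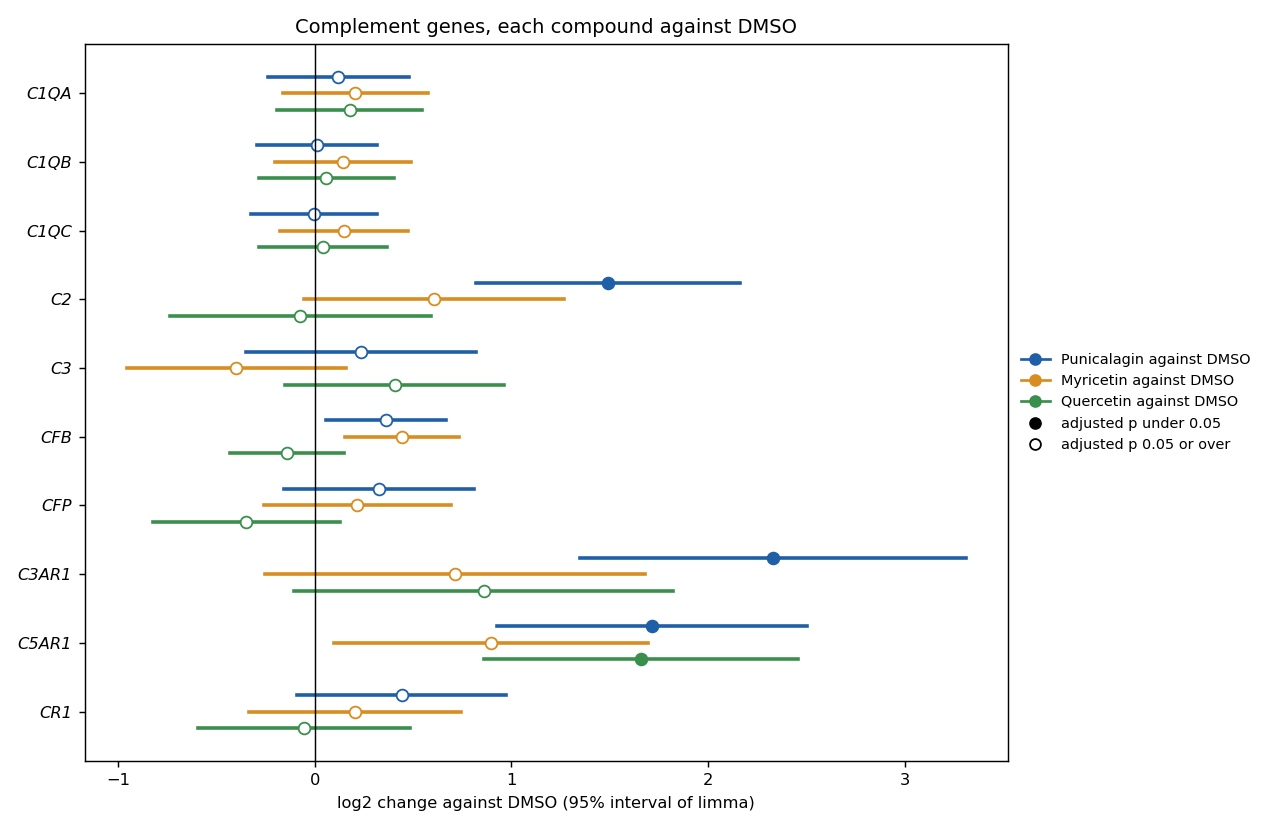
Log2 change of each complement gene against DMSO (horizontal axis) with its 95% interval from limma for punicalagin, myricetin and quercetin. Filled points passed an adjusted p under 0.05. C2, C3AR1 and C5AR1 are filled for punicalagin, C5AR1 for quercetin and none for myricetin.

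The calls rested on few arrays. None of C2, C3AR1 and C5AR1 passed with punicalagin when the DMSO array of passage 7 or 8 or the punicalagin array of passage 6 or 7 was left out (DMSO replicates 2 and 3, punicalagin replicates 1 and 2) (limma adjusted p of up to 0.166, 0.159 and 0.217). Over these omissions their log2 changes were as low as 1.16, 1.997 and 1.44. Without DMSO replicate 1, the array that stood apart, they passed with log2 changes of 1.52, 2.58 and 2.07 (adjusted p = 0.0443, 0.0186 and 0.00782). Without the punicalagin array of passage 8 the log2 changes were 1.85, 2.89 and 2.03 (adjusted p = 0.00484, 0.00227 and 0.0200). C5AR1 with quercetin did not pass without DMSO replicate 2, DMSO replicate 3 or either quercetin array (adjusted p of up to 0.238), and had a log2 change of 2.01 without DMSO replicate 1 (adjusted p = 0.00206). None of these directions changed.
Some markers of macrophages and of other cells were higher and some lower with the compounds, and their part in the changes was not tested. The mean log2 intensity over the 10 markers measured was 8.15 to 8.95 in the punicalagin arrays, 8.09 to 8.24 in the myricetin arrays, 8.32 to 8.44 in the quercetin arrays and 7.85 to 8.27 in the DMSO arrays. Of these 10, 7 had a positive and 3 a negative log2 change with each compound, with a median of 0.56, 0.16 and 0.22 for punicalagin, myricetin and quercetin. CD163, the haemoglobin scavenger receptor, rose with punicalagin (log2 change 1.89, adjusted p = 0.00270) and quercetin (1.85, adjusted p = 0.000414). CD68, a lysosomal protein, rose with quercetin (1.13, adjusted p = 0.0103), but not without either quercetin array (adjusted p of up to 0.151). Among markers of other cells, CD83 of dendritic cells rose with punicalagin (0.84, adjusted p = 0.0180) and quercetin (0.83, adjusted p = 0.00792) and VWF of endothelium with punicalagin (0.86, adjusted p = 0.0172), 1 of 5 and 1 of 4 measured in their lists. FLT3, also of the dendritic cell list, was 7.47, 7.69 and 7.82 in the punicalagin arrays, all above the DMSO arrays at 5.96, 5.90 and 7.20. In the quercetin arrays FLT3 was 5.45 and 5.78, below all DMSO arrays, and it passed with none of the compounds. LAMP3, of the same list, was below every DMSO array with each compound (log2 changes of -0.91, -0.86 and -0.77), without passing (adjusted p = 0.269, 0.444 and 0.285), and the median of that list was 0.10, 0.15 and -0.18. SPI1, the myeloid transcription factor PU.1, was likewise below every DMSO array, with mean log2 differences of -0.47, -0.34 and -0.53 and no call (adjusted p = 0.217, 0.611 and 0.117). AIF1 was below all DMSO arrays with quercetin, also with no call (-0.60, adjusted p = 0.373). CD14, the lipopolysaccharide co-receptor, was 7.68, 8.88 and 6.30 in the punicalagin arrays, 6.56 and 7.22 in the myricetin arrays, 5.74 and 6.23 in the quercetin arrays, and 6.06, 5.78 and 5.82 in the DMSO arrays, and was lowest among the punicalagin arrays at passage 8, as were C2, C3AR1 and C5AR1 (log2 change with punicalagin 1.73, adjusted p = 0.161).

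Set against each other, punicalagin and quercetin differed in C2, and no other pair of compounds did past the threshold. Its log2 intensity of 6.99 ± 0.69 (SD, n = 3) with punicalagin, against 5.43 ± 0.30 (SD, n = 2) with quercetin, was 2.96-fold higher (log2 difference 1.56, 95% interval 0.90 to 2.23, adjusted p = 0.0151 from limma). It was the only one of the 10 genes to pass in this comparison, where 3.91% of all clusters passed and 2.06% were higher with punicalagin. It did not pass without punicalagin replicate 1, quercetin replicate 1 or quercetin replicate 2 (adjusted p of up to 0.245). The difference in CFB was 0.50 (adjusted p = 0.0608) in the brightest cluster and passed in cluster 8118345 alone (0.55, adjusted p = 0.0430). C3AR1 was 1.47 higher with punicalagin than with quercetin, and all punicalagin arrays were above both quercetin arrays, but the difference did not pass (95% interval 0.51 to 2.44, adjusted p = 0.101). It passed without the punicalagin array of passage 8 (2.03, adjusted p = 0.00356). In 4 of the 10 genes (C2, CFB, CFP and C3AR1) the punicalagin arrays were all above the quercetin arrays and in none all below, where 16.8% and 19.3% of all clusters were. For C5AR1, which rose with both compounds, the difference was 0.06, with a 95% interval of -0.74 to 0.85 (adjusted p = 0.972).
Between punicalagin and myricetin none of the 10 genes passed, where 0.528% of all clusters did, and 4 had an unadjusted p under 0.05, where 8.92% of all clusters did. They were C3AR1 (log2 difference 1.62, 95% interval 0.65 to 2.58, adjusted p = 0.156), C2 (0.88, adjusted p = 0.319), C5AR1 (0.82, adjusted p = 0.541) and C3 (0.63, adjusted p = 0.457), each higher with punicalagin. Without the punicalagin array of passage 8, C2 and C3AR1 passed (C3AR1 2.18, adjusted p = 0.0113). In 3 of the 10 genes the punicalagin arrays were all above the myricetin arrays and in 2 all below, where 11.1% and 16.3% of all clusters were. CFB was among those below in its brightest cluster, whereas in its cluster 8178115 the punicalagin arrays were all above.
Myricetin and quercetin, which differ by a hydroxyl group, had none of the 10 genes past the threshold, where 1.7% of all clusters passed, and 3 with an unadjusted p under 0.05, where 12.9% of all clusters had one. These were CFB, with a log2 difference of 0.59 (95% interval 0.27 to 0.90, adjusted p = 0.0697), C3, with one of -0.81 (95% interval -1.42 to -0.20, adjusted p = 0.209), and CFP, with one of 0.56 (adjusted p = 0.332). C5AR1 differed by -0.76 (95% interval -1.63 to 0.11, adjusted p = 0.473), with both myricetin arrays below both quercetin arrays. In 3 of the 10 genes the myricetin arrays were all above the quercetin arrays and in 2 all below, where 31.8% and 23.8% of all clusters were. These intervals leave room for differences of more than 2-fold in C2, C3, C3AR1, C5AR1 and CFP. As the doses of the flavonols are unknown here, these values compare the treatments as they were given and not the compounds at equal dose.

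**Figure D3:**
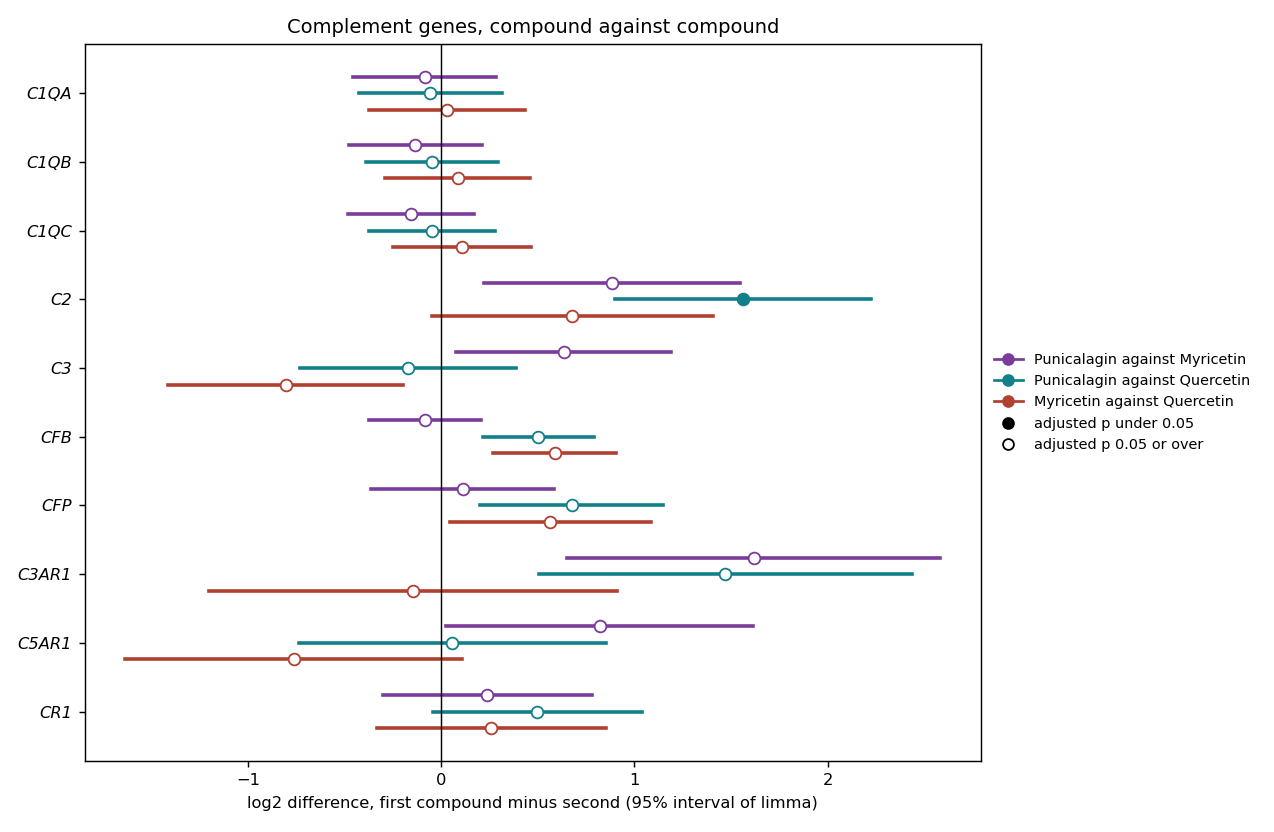
Log2 difference of each complement gene between compounds (horizontal axis, the compound named before the word against minus the one after it) with its 95% interval from limma. The filled point, with an adjusted p under 0.05, is C2 between punicalagin and quercetin, at 1.56.

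Of the other genes of the complement pathway, 50 were listed by role and 44 had a cluster with their symbol alone. With punicalagin 5 of the 44 rose and none fell, with myricetin 1 rose, and with quercetin 4 rose and 1 fell, where 2.33%, 0.509% and 3.92% of all clusters passed in either direction. Their median log2 change was 0.04 with punicalagin, 0.01 with myricetin and -0.01 with quercetin, beside -0.05, 0.00 and -0.04 over all clusters. Among the 5 membrane regulators measured, CD46 and CD55 rose with punicalagin. CD46 is a cofactor for the cleavage of C3b, and CD55 speeds the decay of the convertases. CD46 was 9.10, 9.13 and 9.15 in the punicalagin arrays, against 7.76, 8.27 and 8.47 in the DMSO arrays (log2 change 0.96, adjusted p = 0.0371 from limma). CD55 was 9.76, 9.89 and 9.53 in the punicalagin arrays, against 8.92, 8.79 and 8.92 in the DMSO arrays (log2 change 0.85, adjusted p = 0.0219). Both were also higher with punicalagin than with quercetin (log2 difference 1.01 and 0.94, adjusted p = 0.0143 and 0.00607).
Among the 9 other complement receptors and C1q binders, LRP1, CALR and CD93 rose with punicalagin. LRP1, an endocytic receptor of the LDL receptor family that pairs with calreticulin at the cell surface, was 8.37, 8.70 and 8.31 in the punicalagin arrays, 7.11 and 7.14 in the myricetin arrays, 7.34 and 7.71 in the quercetin arrays, and 6.08, 6.22 and 6.20 in the DMSO arrays. Every treated array was above every DMSO array, and LRP1 rose with all compounds, with log2 changes of 2.29, 0.96 and 1.36 for punicalagin, myricetin and quercetin (adjusted p = 0.000690, 0.0249 and 0.000661). It was also higher with punicalagin than with myricetin or quercetin (log2 difference 1.33 and 0.93, adjusted p = 0.0239 and 0.00963). CALR, which encodes calreticulin, had a log2 change of 0.98 with punicalagin (adjusted p = 0.0194). CD93, a surface protein first described as a C1q receptor, rose by 0.73 with punicalagin (adjusted p = 0.0424) and by 0.65 with quercetin (adjusted p = 0.0299), but passed with neither when passage was fitted as a block (adjusted p = 0.0556 and 0.0563).

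C9, which forms the pore of the membrane attack complex, was the gene of the 6 in the terminal pathway that rose, and it did so with quercetin. It was 5.01, 5.34 and 4.95 in the punicalagin arrays, 5.10 and 5.03 in the myricetin arrays, 6.67 and 6.65 in the quercetin arrays, and 4.51, 4.93 and 4.84 in the DMSO arrays. The quercetin arrays stood above all others, with a log2 change of 1.90 against DMSO (adjusted p = 9.24e-05 from limma). The log2 difference was -1.56 between punicalagin and quercetin (adjusted p = 0.000802) and -1.60 between myricetin and quercetin (adjusted p = 0.00143). CLU, or clusterin, a soluble inhibitor of that complex, fell by 0.87 on the log2 scale with quercetin (adjusted p = 0.00376), and its quercetin arrays, 4.11 and 4.35, were below the DMSO arrays at 5.02, 5.20 and 5.08. Both genes were dim, beside array medians of 5.14 to 5.25. With DMSO, C9 was below the array median on every array, and CLU was at most 5.20 on any array. No detection call was at hand.
None of the 11 C1 proteases and lectin pathway genes passed with any compound, and FCN2 and COLEC10, lectins that start the cascade, had the largest changes with punicalagin, -0.33 and 0.33. Neither did C5, the source of C5a, or CFD, the protease that cleaves factor B, with log2 changes of -0.07 and 0.43 with punicalagin. Without 1 array, chosen in turn, LRP1 with punicalagin and quercetin and C9 with quercetin kept their call, with adjusted p of up to 0.0116, 0.0219 and 0.00342. With punicalagin, CD55 and CALR did not pass without DMSO replicates 2 or 3 or punicalagin replicates 1 or 2 (adjusted p of up to 0.120 and 0.101), CD46 without DMSO replicate 2 or any punicalagin array (up to 0.167), and CD93 whichever of the 6 arrays was left out (up to 0.163). With quercetin, C5AR2 did not pass without DMSO replicate 3 or either quercetin array (up to 0.297), CD93 without DMSO replicates 2 or 3 or either quercetin array (up to 0.347), and CLU without quercetin replicate 1 (0.0894). LRP1 with myricetin did not pass without DMSO replicate 2 or either myricetin array (up to 0.315). Between punicalagin and quercetin, CD46, CD55 and LRP1 did not pass without quercetin replicate 1, nor CD46 without quercetin replicate 2 (up to 0.246, 0.140 and 0.204), and LRP1 between punicalagin and myricetin did not without punicalagin replicates 1 or 2 or either myricetin array (up to 0.456).
Other settings ended calls too. With all 33297 clusters tested, CD46, CD55, CALR and CD93 with punicalagin (limma adjusted p = 0.101, 0.0650, 0.0624 and 0.101), LRP1 with myricetin (0.0771), C5AR2 and CD93 with quercetin (0.0923 and 0.0665) and LRP1 between punicalagin and myricetin (0.0926) did not pass. With a variance trend and robust estimation CD46, CD55 and CD93 with punicalagin (0.0561, 0.0535 and 0.0830) and CD93 with quercetin (0.0540) did not. C5AR2 with quercetin did not pass in passages 7 and 8 alone (0.0637). With only the groups compared in the fit, LRP1 with myricetin (0.102) and C5AR2 and CD93 with quercetin (0.173 and 0.0822) did not pass. None of the pathway genes named here passed the methods' t-test with adjusted p and a 2-fold change. In that setting 0 of all 21214 clusters passed in every comparison except myricetin with quercetin, where 5 did.

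**Figure D4:**
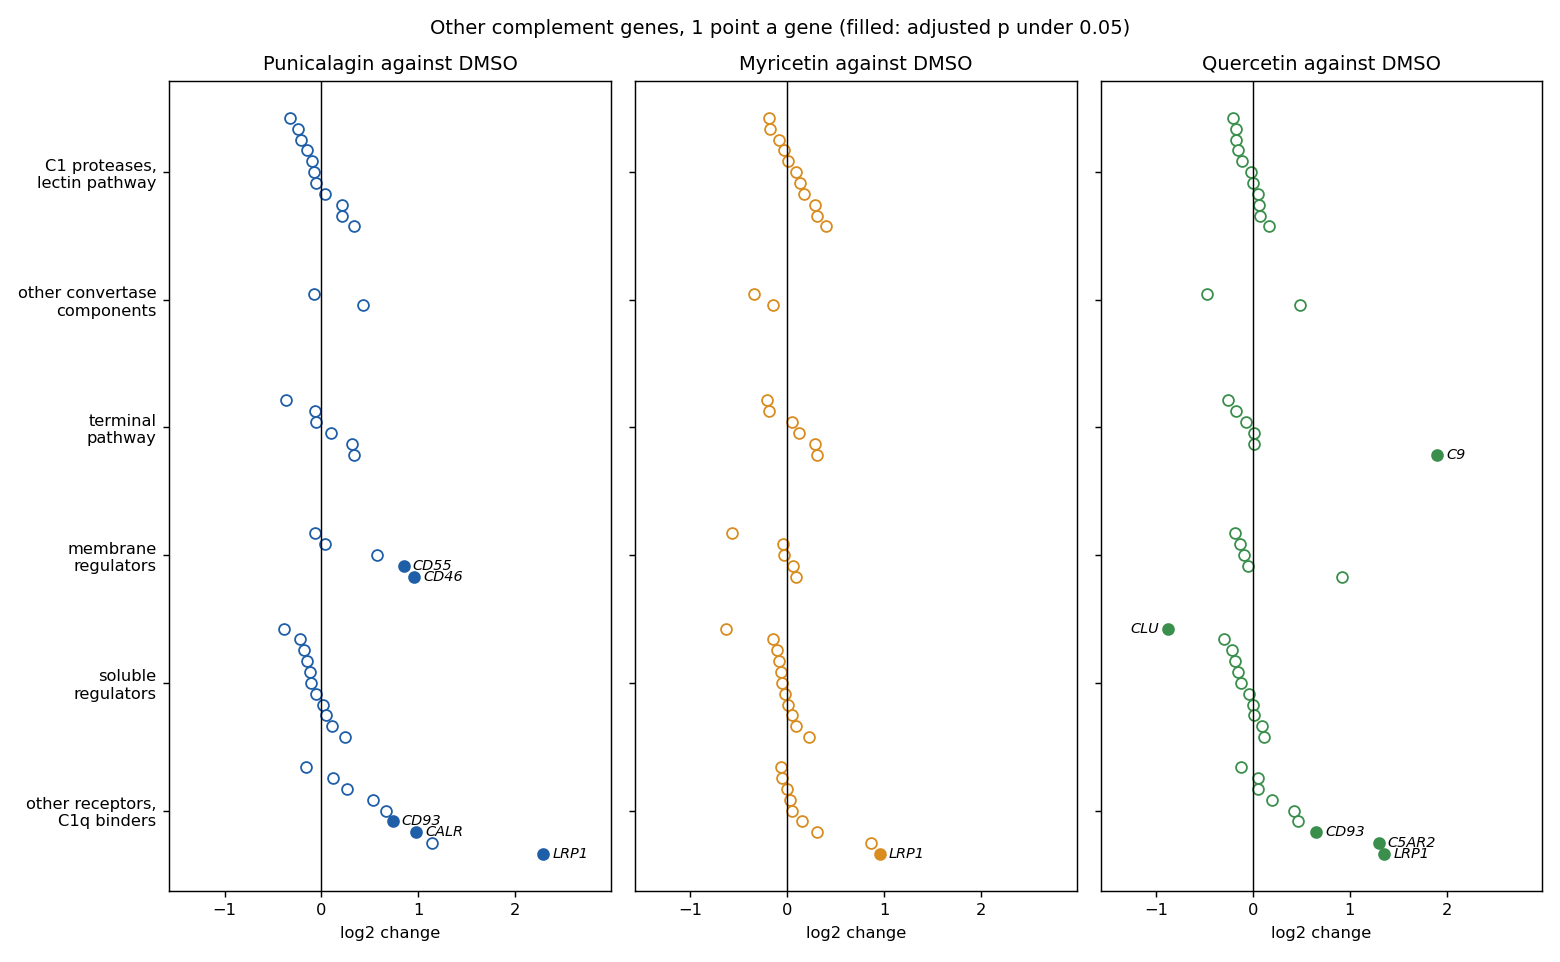
Log2 change against DMSO (horizontal axis) of the 44 other complement genes measured, 1 point a gene, by role (vertical axis) for punicalagin, myricetin and quercetin. Filled and named points passed an adjusted p under 0.05. LRP1, at 2.29 with punicalagin, and C9, at 1.90 with quercetin, lie farthest to the right.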

How the data were processed

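RNA of THP-1 cells was read on arrays of the type Affymetrix Human Gene 1.0 ST. The authors deposited a log2 intensity for each transcript cluster, made with RMA (background correction, quantile normalization and probe summary) in Partek Genomics Suite 7.0. The submitters' processing notes also name Affymetrix Expression Console. The sources do not say whether the 10 arrays went through RMA in 1 run, and no normalization was added. A probe table gives symbols to 21214 of 33297 clusters. These were tested with limma 3.58.1 (lmFit and eBayes) in R 4.3.3, with Benjamini-Hochberg adjustment within each of 6 comparisons and a threshold of 0.05. Punicalagin against DMSO was fitted on their 6 arrays, and the other comparisons on all 10 arrays with a shared spread. The errors given are SDs over arrays and standard errors from limma, and the number of arrays limits their precision. The script was tested on simulated data. Groups come from the sample labels. The 10 genes and the lists of pathway and marker genes were chosen with earlier results of these data known, so counts over them are descriptions. Pathway genes were named if past the threshold against DMSO, up to 4 a list by the size of the change with punicalagin, and otherwise up to 2. Alternatives were the passage as a block, another variance model, array weights, all clusters, a filter on dim clusters, passages 7 and 8, other groups in the fit, each array left out, the methods' t-test (an analysis of variance) and a 2-fold limit. Promoter sequences are from RefSeq.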

Additional observations from a re-analysis of the deposited data

How the results depend on the processing

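The numbers of complement genes past the threshold depended on the setting. With all 33297 clusters tested, 0 of the 10 passed for punicalagin and 0 for quercetin against DMSO, where 3 and 1 did. In that setting 206 and 561 of the 33297 clusters passed. The methods' t-test with adjusted p gave 0 of the 10 for both, and 0 of all 21214 clusters passed it. With only the 2 groups in the fit, 0 passed for quercetin against DMSO, while 377 of 21214 clusters passed, against 832. Between myricetin and quercetin 5 passed in such a fit, where 0 had (C2, CFB and CFP higher, C3 and C5AR1 lower). There 2505 of 21214 clusters passed, against 361. Array weights gave 1 for myricetin against DMSO (C5AR1), 1 for punicalagin against myricetin (C3AR1), 3 for punicalagin against quercetin (C2, CFB and C3AR1) and 2 for myricetin against quercetin (CFB and C3), where 0, 0, 1 and 0 had passed, while 533, 485, 2448 and 2560 clusters passed. Passages 7 and 8 alone gave 2 for punicalagin against quercetin (C2 and CFP) and 1 for myricetin against quercetin (CFB), with 1130 and 1077 clusters. Both forms of the methods' t-test gave 0 for punicalagin against quercetin, where 400 clusters passed with unadjusted p and 0 with adjusted p. Leaving out 1 array gave 0 to 3 for punicalagin, 0 to 0 for myricetin and 0 to 1 for quercetin against DMSO, 0 to 2 for punicalagin against myricetin, 0 to 2 for punicalagin against quercetin and 0 to 0 for myricetin against quercetin. Where a myricetin or quercetin array was left out, the remaining 1 was taken to vary like the other groups. The cause of these shifts was not tested. The alternatives for pathway and marker genes were chosen after seeing the data. Over all clusters, 494, 108, 832, 112, 830 and 361 passed in the comparisons of punicalagin, myricetin and quercetin with DMSO, punicalagin with myricetin, punicalagin with quercetin and myricetin with quercetin. These were 127 to 660, 5 to 335, 240 to 1639, 0 to 361, 66 to 794 and 54 to 67 without 1 array, and 0 to 1014, 0 to 533, 0 to 2539, 0 to 485, 0 to 2448 and 5 to 2560 over the other settings. Of 918 values of single genes under alternatives, 826 kept direction and side of the threshold, 30 lost and 18 gained a call, and 44 changed sign, none of them past the threshold before or after. Those that changed sign, all of at most 0.24 in size, were for punicalagin against DMSO C1QB (-0.0071 with array weights, -0.021 in passages 7 and 8, -0.021 to 0.069 without 1 array), C1QC (0.032, 0.063 and -0.098 to 0.060 in the same settings) and C3 (-0.010 to 0.51 without 1 array). For myricetin against DMSO it was CR1 (-0.036 to 0.44). For quercetin against DMSO they were CR1 (0.11 with the block, 0.042 with array weights, 0.089 in passages 7 and 8, -0.15 to 0.089 without 1 array), CFB (0.017 in cluster 8178115), C1QB (-0.18 to 0.30), C1QC (-0.051 to 0.13) and C2 (-0.29 to 0.14). For punicalagin against myricetin they were CFB (0.14 and 0.19 in its other clusters), CFP (-0.0017 with array weights, -0.018 to 0.35 without 1 array), C1QA (-0.20 to 0.026) and CR1 (-0.0011 to 0.48). For punicalagin against quercetin they were C5AR1 (-0.19 with the block, -0.089 in passages 7 and 8, -0.11 to 0.37 without 1 array), C1QA (-0.22 to 0.11), C1QB (-0.29 to 0.19), C1QC (-0.13 to 0.038) and C3 (-0.42 to 0.10). For myricetin against quercetin they were C1QA (-0.14 to 0.20), C1QB (-0.16 to 0.33), C1QC (-0.039 to 0.26) and C3AR1 (-0.42 to 0.13). Fitted with passage as a replicate block, the counts of complement genes past the threshold stayed at 3, 0, 1, 0, 1 and 0, and with punicalagin the adjusted p of C2, C3AR1 and C5AR1 was 0.0265, 0.00848 and 0.00699. Deviations of same-passage punicalagin and DMSO arrays correlated at 0.36, -0.10 and 0.32 and those of different passages at -0.44 to 0.33. With so few arrays these values depend on each other and cannot decide whether arrays of the same passage are paired. The main fit held no term for passage.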

Other observations

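CD59, the membrane inhibitor of C9 insertion, was noted after its values were seen. It was 6.53 and 6.44 in the myricetin arrays, against 7.97 and 7.99 in the quercetin arrays, a log2 difference of -1.49 (limma adjusted p = 0.0227), and C9 was lower with myricetin than with quercetin as well. The call of CD59 was lost without any 1 of the 4 arrays (adjusted p of up to 0.189). In the DMSO arrays CD59 was 7.57, 7.08 and 6.53, and neither flavonol passed against DMSO (log2 change -0.57 with myricetin, adjusted p = 0.561, and 0.92 with quercetin, adjusted p = 0.0767).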
